A study of Mus musculus with 45 samples.

Results

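Liver gene expression was compared between mice on a cholesterol diet that also held the Gl-1 extract of Ganoderma lucidum (HCD+Gl-1) and mice on the standard diet (Control). The comparison rests on 6 of the 45 arrays of the series, the 3 liver arrays of each group, and on all 22080 genes of the deposited table. The arrays were assigned by their labels, and the comparison was chosen with earlier results of these data known. All mice were male C57BL/6 animals, with 8 mice in each group. The methods give 7 weeks as the age of the mice used, which is not their age at collection. Tissues were taken on day 43, after 8 h without food and water. Control mice ate AIN-93 diet without added cholesterol or extract. HCD+Gl-1 mice ate AIN-93 diet with 0.5% cholesterol and 1% of lyophilized Gl-1, a hydroalcoholic extract of fruiting bodies of the Mexican strain CP-145 grown on oak sawdust without acetylsalicylic acid. The groups therefore differ in cholesterol and in extract together. HCD mice, on the same 0.5% cholesterol with no extract, are given beside them where they help to place a value. In the fit, the HCD arrays enter the HCD+Gl-1 minus Control comparison only through the shared estimate of the spread. The authors' normalization, batch adjustment and choice of probe set came before the fit and may have drawn on the HCD arrays too. By the methods, the RNA of 4 mice makes pool A, the remaining 4 mice make pool B, and pool C combines both. Each group thus has 3 arrays but only 2 pools of different animals, and the p-values count the combined pool as a further sample. The question the comparison addresses is which differences from the standard diet were present when cholesterol and Gl-1 were eaten together.

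Cholesterol in liver cells comes from the diet and from synthesis out of acetyl-CoA through mevalonate, squalene and lanosterol. When membrane sterol is plentiful, the SREBP transcription factors are held in the endoplasmic reticulum and the genes of sterol synthesis are transcribed less. Oxysterols at the same time activate the nuclear receptor LXR, which drives sterol export (Abcg5, Abcg8), fatty acid synthesis through Srebf1 and, in mice, bile acid synthesis through Cyp7a1.

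The values are log2 expression values with 1 probe set per gene, so a difference of 1 doubles the linear signal. Levels of different genes are not compared with each other, because each probe set has its own brightness. Differentially expressed (DE) genes are those that differed by more than 0.7 on the log2 scale in either direction and had a limma adjusted p, over all genes, of at most 0.05. Of the 22080 genes, 71 were DE between HCD+Gl-1 and Control, which is 0.322%, with 28 higher (0.127%) and 43 lower (0.195%) under HCD+Gl-1. Without the fold threshold 791 genes passed (3.58%), 405 higher (1.83%) and 386 lower (1.75%). The 6 arrays did not overlap between the groups for 3514 genes (15.9%), and they overlapped for 5 of the 71 DE genes. The median log2 fold change over all genes was -0.03. Hepatocyte markers differed little, with 0 of 15 DE, none with an adjusted p of at most 0.05, and a mean level between 13.02 and 13.11 on all 6 arrays. In bulk tissue, fewer cells of a type and less RNA per cell cannot be told apart. With 3 arrays against 3, an exact two-sided permutation test of 1 gene cannot give a p under 0.1, so single genes are judged by the limma fit.

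The 71 genes were not equally firm. The fit on the 15 liver arrays alone kept 32 of them and called no other gene. Leaving out each of the 6 arrays in turn, 28 of the 71 were DE every time. Control pool C stood apart from pools A and B in the genes that were lower under HCD+Gl-1: it lay below both for 39 of the 43, against 25.3% of all genes. It lay above both for 48% of all genes, and so outside their range for 73.3%. In the liver groups pool C lay outside that range for 66.6% to 73.9% of all genes. The 43 genes were called on values that include these Control arrays. With Control pool C as the only Control array, 7 of the 43 lower genes and 16 of the 28 higher genes were DE, in a fit that takes the lone array to vary like the other groups. Of the 71 DE genes, 33 are in the pathway lists used here, 15 are only in lists of markers of squamous epithelium and skeletal muscle, and 23 are in none. The lists were drawn up with earlier results of these data known, so counts of DE genes by list are a description.

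**Figure D1:**
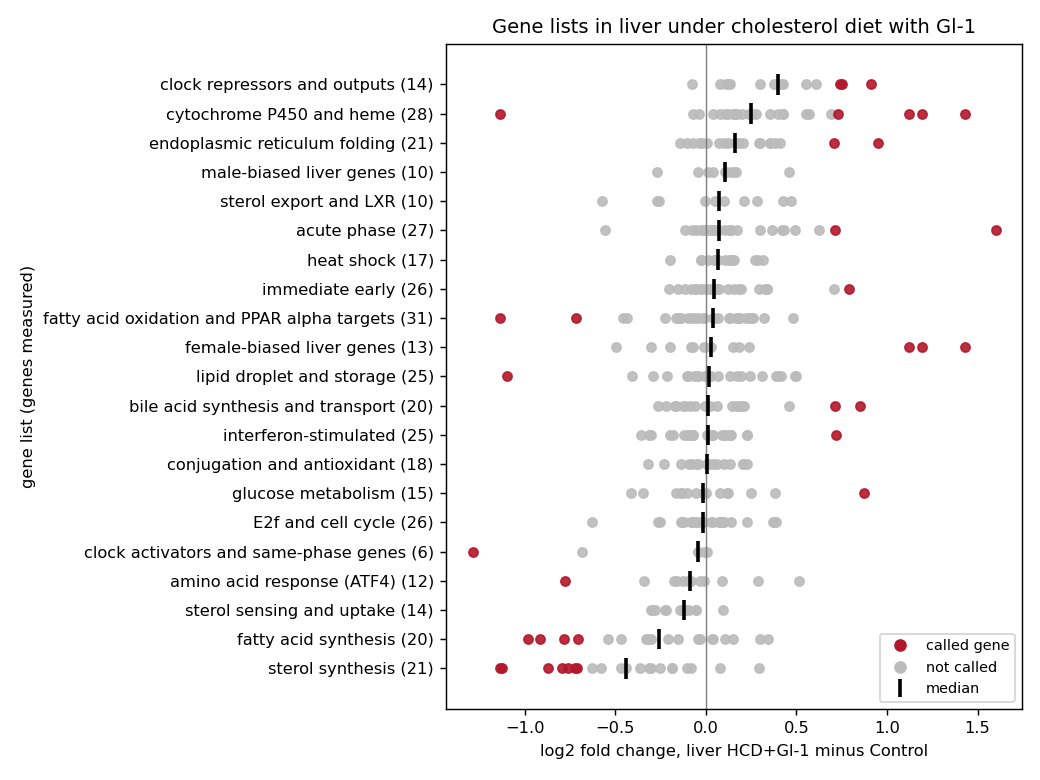
Log2 fold change of liver HCD+Gl-1 minus Control (x axis) for the measured genes of 21 pathway lists (y axis, number of measured genes in brackets), with DE genes (called) in red, others in grey and the list median as a black bar. Sterol synthesis has the lowest median (-0.44) and 7 DE genes, all lower, and clock repressors and outputs have the highest median (0.40).

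A group of sterol synthesis genes was lower under HCD+Gl-1. Of 21 measured genes of the list, 7 were DE and lower, none was DE and higher, 12 were lower with an adjusted p of at most 0.05, and 19 had a difference below 0. Of all genes, 42.5% had a difference above 0. The list's median log2 fold change was -0.44, beside -0.03 over all genes. On the Control arrays the mean log2 level of the list was 8.93 in pool A, 9.12 in pool B and 8.66 in pool C, and on the HCD+Gl-1 arrays it was 8.47, 8.41 and 8.45. All HCD+Gl-1 arrays thus lay below all Control arrays, and pool C was the nearest of the Controls. The HCD arrays, at 8.69, 8.68 and 8.66, lay at the level of Control pool C and above all HCD+Gl-1 arrays, and the list's median against Control was -0.19 for HCD. Markers of squamous epithelium, a tissue that liver lacks, had mean levels of 6.33, 6.54 and 5.81 on the same Control pools, so that A and B were the highest Control arrays in both lists. The part of other tissue in the sterol genes was not tested.

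The promoters of 4 of the 7 DE genes are shown for a motif that most of the list shares. The 250 bases before the listed transcription start are printed 5′ to 3′ on the gene's strand, from RefSeq on GRCm38.p6, with each CCAAT box (CCAAT, or ATTGG on the other strand), the site of NF-Y, in capitals. They are Nsdhl (chrX:72918271-72918520, plus strand), the last of 3 listed starts of Dhcr7 (chr7:143829964-143830213, plus strand), Cyp51 (chr5:4104698-4104947, minus strand) and Msmo1 (chr8:64733579-64733828, minus strand).
Nsdhl: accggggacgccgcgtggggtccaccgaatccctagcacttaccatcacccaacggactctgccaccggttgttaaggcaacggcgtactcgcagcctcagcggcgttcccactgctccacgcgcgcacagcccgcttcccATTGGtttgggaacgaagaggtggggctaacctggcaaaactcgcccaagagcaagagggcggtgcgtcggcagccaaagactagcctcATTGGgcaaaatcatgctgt
Dhcr7: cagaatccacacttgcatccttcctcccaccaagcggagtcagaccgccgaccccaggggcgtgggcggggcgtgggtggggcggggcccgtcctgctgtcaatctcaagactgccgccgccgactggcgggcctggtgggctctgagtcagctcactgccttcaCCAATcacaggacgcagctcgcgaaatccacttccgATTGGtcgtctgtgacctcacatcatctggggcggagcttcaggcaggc
Cyp51: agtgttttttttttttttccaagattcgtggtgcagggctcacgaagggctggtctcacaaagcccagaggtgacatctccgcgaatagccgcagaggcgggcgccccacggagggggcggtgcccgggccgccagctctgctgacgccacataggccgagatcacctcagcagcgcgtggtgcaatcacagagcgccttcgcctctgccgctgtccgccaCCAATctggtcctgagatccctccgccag
Msmo1: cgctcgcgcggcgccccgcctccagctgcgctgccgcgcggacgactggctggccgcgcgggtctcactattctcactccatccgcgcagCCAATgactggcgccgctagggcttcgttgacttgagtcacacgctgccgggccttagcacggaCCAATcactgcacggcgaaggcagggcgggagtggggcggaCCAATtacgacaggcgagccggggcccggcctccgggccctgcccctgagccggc
Msmo1 holds 3 boxes, Nsdhl and this start of Dhcr7 hold 2 each, and Cyp51 holds 1. Listed starts 1 and 2 of Dhcr7, not printed, hold 0. Pmvk, also DE and not printed, holds 1 box at listed start 1 and 0 at listed start 2. Of the 16 sterol synthesis genes with a listed promoter, 15 hold CCAAT on either strand in at least 1 listed window, which is 93.8%, beside 39% of all 15574 measured genes with a promoter, 12 of 17 fatty acid synthesis genes (70.6%) and 8 of 11 clock repressors and outputs (72.7%). The SREBP element searched as TCACNCCAC on both strands was found for 1 of the 16 genes, Hmgcs1, and for 1.24% of all genes. These motifs were chosen after other spellings had been tried. A match is a run of letters and not a shown binding site, and a gene without one may be bound through other letters.

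Fdps, which makes farnesyl diphosphate, had log2 values of 8.32, 8.61 and 7.77 on Control pools A, B and C and 7.22, 7.18 and 6.90 on the HCD+Gl-1 pools. No array of one group reached the other, and the difference was -1.13 (SE 0.16, adjusted p = 3.58e-05), a 2.19-fold lower linear signal. Nsdhl, a sterol dehydrogenase of the late pathway, had values of 9.50, 9.89 and 8.93 in Control and 8.38, 8.17 and 8.40 under HCD+Gl-1, a difference of -1.12 (SE 0.16, adjusted p = 3.5e-05). In both genes pool C was the lowest Control array and still lay above every HCD+Gl-1 array. Against pool C alone the differences were -0.67 and -0.61, with adjusted p-values of 0.105 and 0.111.

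Pmvk, the phosphomevalonate kinase, was the tightest member. Its values were 8.52, 8.68 and 8.51 in Control and 7.84, 7.84 and 7.73 under HCD+Gl-1, and the difference was -0.76 (SE 0.09, adjusted p = 2.6e-07). It was DE without each array in turn (-0.79 to -0.71) and against Control pool C alone (-0.70, adjusted p = 0.00185). Among the sterol synthesis genes it was the only one of the 7 that was DE in that last setting.

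Dhcr7, which makes cholesterol in the final step of the Kandutsch-Russell route, had values of 9.90, 10.13 and 9.64 in Control and 9.03, 9.19 and 8.83 under HCD+Gl-1, with a difference of -0.87 (SE 0.13, adjusted p = 3.5e-05). Cyp51, the lanosterol demethylase, had values of 8.21, 8.56 and 7.96 in Control and 7.27, 7.35 and 7.72 under HCD+Gl-1, with a difference of -0.80 (SE 0.11, adjusted p = 2.81e-05). Both were separate between the groups, although for Cyp51 pool C of HCD+Gl-1 was close to pool C of Control. Msmo1, the sterol-C4-methyl oxidase, had 9.48, 9.76 and 8.76 in Control and 8.62, 8.53 and 8.68 under HCD+Gl-1, and its Control pool C lay near the HCD+Gl-1 arrays. Its difference of -0.72 (SE 0.15, adjusted p = 0.00324) shrank to -0.15 against pool C alone. Sqle, the squalene epoxidase, had 6.98, 7.31 and 6.61 in Control and 6.15, 6.20 and 6.41 under HCD+Gl-1, a difference of -0.71 (SE 0.13, adjusted p = 0.00102). Leaving out 1 array, Cyp51 lost its call without Control pool B (-0.94 to -0.64). Msmo1 lost it without Control pool A, Control pool B or HCD+Gl-1 pool B (-1.01 to -0.51), and Sqle without Control pool B or HCD+Gl-1 pool A or B (-0.89 to -0.54).

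Further along the list, Lss (lanosterol synthase, -0.58, adjusted p = 0.00107) and Tm7sf2 (a sterol reductase, -0.63, adjusted p = 6.78e-05) fell short of the fold threshold only. Ggps1, which makes geranylgeranyl diphosphate, was above 0, at 0.29 (adjusted p = 0.247).

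Set beside the diet without extract, members of the list fell into different patterns. For Sqle the HCD arrays were already low, at 5.86, 6.14 and 6.14, as they were for Cyp51, at 7.60, 7.50 and 7.57, with HCD minus Control differences of -0.92 (adjusted p = 4.21e-05) and -0.69 (adjusted p = 0.000253). The HCD arrays of Fdps, at 7.85, 8.05 and 7.81, overlapped Control, and so did those of Nsdhl, at 9.12, 9.31 and 8.80. The direct comparison of HCD+Gl-1 with HCD gave -0.80 (adjusted p = 0.00442) for Fdps and -0.76 (adjusted p = 0.00636) for Nsdhl, both DE, and 0.21 (adjusted p = 0.47) for Sqle and -0.11 (adjusted p = 0.7) for Cyp51, neither DE. In that comparison 36 of the 22080 genes were DE (0.163%), 21 higher (0.0951%) and 15 lower (0.0679%). In HCD against Control 54 were DE (0.245%), 23 higher (0.104%) and 31 lower (0.140%).

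**Figure D2:**
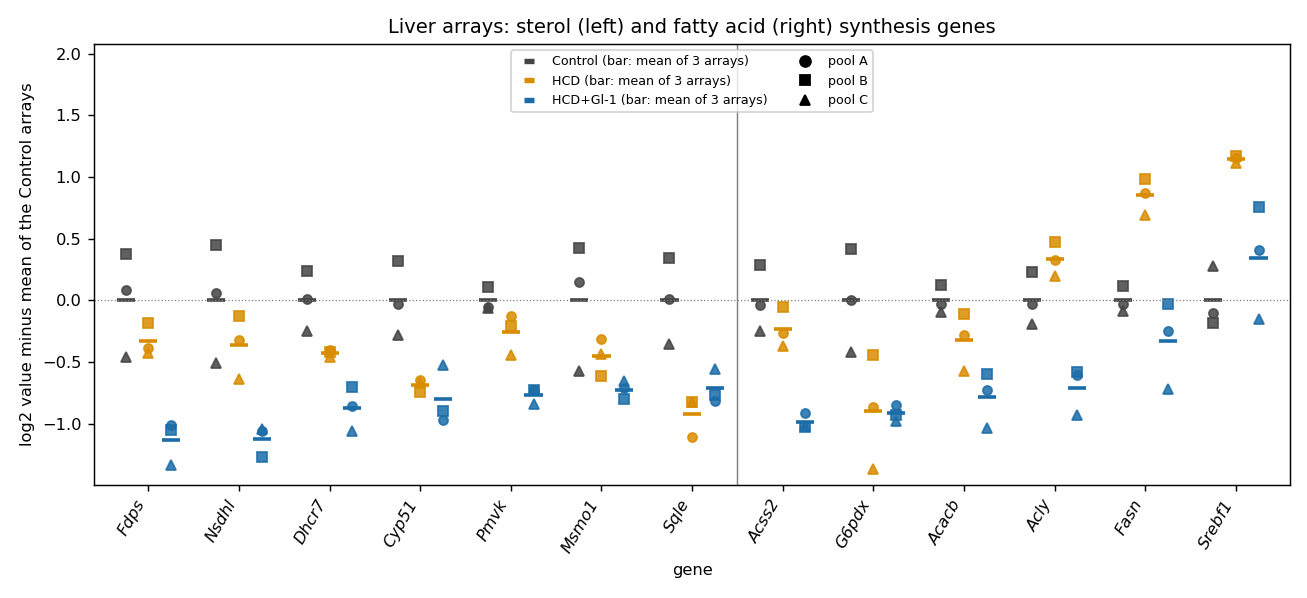
Log2 values of single liver arrays (points, shaped by pool) and group means (bars) for sterol synthesis genes (left of the line) and fatty acid synthesis genes (right), each relative to the mean of its Control arrays (y axis). The HCD+Gl-1 arrays of Fdps, Nsdhl and Acss2 lie below all HCD arrays, and those of Fasn and Srebf1 overlap Control while the HCD arrays lie above.

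Fatty acid synthesis was lower in part. Of 20 measured genes, 4 were DE and lower, none was DE and higher, and 9 were lower with an adjusted p of at most 0.05. The list's median was -0.26, beside -0.03 over all genes and 0.16 in the same list for HCD against Control. Acss2, which makes acetyl-CoA from acetate, had log2 values of 10.10, 10.42 and 9.89 in Control and 9.22, 9.11 and 9.12 under HCD+Gl-1. The HCD+Gl-1 arrays lay close together and well below Control, with a difference of -0.98 (SE 0.11, adjusted p = 2.6e-07), and Acss2 was also DE against Control pool C alone (-0.74, adjusted p = 0.00612).

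G6pdx, which supplies NADPH through the pentose phosphate pathway, had 8.54, 8.95 and 8.12 in Control and 7.69, 7.61 and 7.56 under HCD+Gl-1, a difference of -0.92 (SE 0.18, adjusted p = 0.00175). Its HCD value was as low, with an HCD minus Control difference of -0.90 (adjusted p = 0.00338). Against Control pool C alone the HCD+Gl-1 difference of G6pdx was -0.50. With the 15 liver arrays only, or after quantile normalization over liver arrays, G6pdx was not DE, nor were Acacb and Acly. Acacb, the mitochondrial acetyl-CoA carboxylase, had 9.09, 9.25 and 9.03 in Control and 8.40, 8.53 and 8.09 under HCD+Gl-1, a difference of -0.78 (SE 0.13, adjusted p = 0.000158). Acly, the ATP citrate lyase, had 9.69, 9.95 and 9.53 in Control and 9.12, 9.14 and 8.79 under HCD+Gl-1, with a difference of -0.71 (SE 0.13, adjusted p = 0.000922). It lay on the fold threshold and was not DE without Control pool B or without HCD+Gl-1 pool C (-0.80 to -0.59), and Acacb was not DE without HCD+Gl-1 pool C (-0.88 to -0.66). The HCD arrays of Acly, at 10.05, 10.20 and 9.92, overlapped the upper end of Control, and HCD+Gl-1 minus HCD was -1.04 (adjusted p = 6.77e-06).

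Srebf1, which codes for a transcription factor of fatty acid synthesis, Fasn and Thrsp did not pass against Control. Srebf1 had values of 9.40, 9.32 and 9.78 in Control, 10.65, 10.67 and 10.61 under HCD and 9.91, 10.26 and 9.35 under HCD+Gl-1. The HCD arrays stood alone at the top, while the HCD+Gl-1 arrays were spread widely across and above the Control range, with a difference from Control of 0.34 (adjusted p = 0.176) and a 95% interval of 0.06 to 0.63. Fasn, the fatty acid synthase, had 10.29, 10.43 and 10.23 in Control, 11.19, 11.30 and 11.01 under HCD and 10.07, 10.29 and 9.60 under HCD+Gl-1. Its HCD+Gl-1 minus Control difference was -0.33 (adjusted p = 0.408), its HCD minus Control difference 0.85 (adjusted p = 0.0194), and the direct HCD+Gl-1 minus HCD comparison -1.18 (adjusted p = 0.000629). Thrsp, a lipogenic regulator, had differences from Control of 1.05 (adjusted p = 0.0112) under HCD and 0.30 (adjusted p = 0.554) under HCD+Gl-1. Its HCD call was lost with the 15 liver arrays only and without Control pool C, HCD pool A or HCD pool B. The sensing and uptake genes (14 measured) had no DE gene, and 2 were lower with an adjusted p of at most 0.05, Srebf2 (-0.28) and Scap (-0.22), which code for the sterol-regulated transcription factor and its escort protein.

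The biliary sterol transporter genes Abcg5 and Abcg8, which code for both parts of one pump, stood above Control by less than under the diet alone. Abcg5 had log2 values of 10.27, 10.18 and 10.41 in Control, 11.22, 11.23 and 11.16 under HCD and 10.85, 10.60 and 10.82 under HCD+Gl-1. Abcg8 had 10.47, 10.52 and 10.41 in Control, 11.32, 11.37 and 11.36 under HCD and 10.80, 10.78 and 10.68 under HCD+Gl-1. In both genes the 3 groups followed each other without overlap. Against Control the HCD+Gl-1 differences were 0.47 (adjusted p = 0.011) and 0.28 (adjusted p = 0.0316), below the fold threshold, and the HCD differences were 0.92 (adjusted p = 1.34e-06) and 0.88 (adjusted p = 8.65e-10). The direct HCD+Gl-1 minus HCD test gave -0.45 (adjusted p = 0.023) and -0.60 (adjusted p = 1.15e-05). In the whole list of 10 sterol export and LXR genes none was DE, 3 were higher with an adjusted p of at most 0.05 (Abcg5, Abcg8 and Lpl, the lipoprotein lipase, at 0.43) and the list median was 0.08. The cholesterol exporter genes Abca1 (0.21, adjusted p = 0.0941) and Abcg1 (-0.0018, adjusted p = 0.995) did not pass. In the same list 1 gene was lower, the phospholipid transfer protein gene Pltp (-0.57, adjusted p = 0.00159).

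Bile acid genes held a few differences. Of 20 measured, 2 were DE and higher and none was lower, and the list median was 0.01. Cyp7a1, the rate-limiting enzyme of bile acid synthesis, had 9.29, 9.47 and 8.88 in Control and 9.95, 9.91 and 10.33 under HCD+Gl-1, a difference of 0.85 (SE 0.17, adjusted p = 0.00203). The HCD arrays, at 10.24, 10.49 and 9.96, were in the same range as HCD+Gl-1, with 1.02 (adjusted p = 0.000264) against Control and -0.17 (adjusted p = 0.697) between the cholesterol diets. Cyp7a1 was not DE without Control pool C (0.68 to 0.98). It was also not DE with the 15 liver arrays only, with pools A and B only or after quantile normalization over liver arrays. Its HCD call was lost with the 15 liver arrays only, with the compared groups only and after that normalization. Abcc3, a basolateral exporter of conjugated bile acids, had 9.74, 9.69 and 9.67 in Control and 10.51, 10.40 and 10.34 under HCD+Gl-1. Its difference of 0.71 (SE 0.08, adjusted p = 2.6e-07) was just past the fold threshold and under it without Control pool C or HCD+Gl-1 pool A (0.67 to 0.75), while HCD minus Control was 1.07 (adjusted p = 4.73e-12). Cyp7b1, of the alternative oxysterol route, had 11.32, 11.17 and 11.50 in Control, 10.75, 10.87 and 10.81 under HCD and 11.78, 11.47 and 12.12 under HCD+Gl-1. It was below Control under HCD (-0.52, adjusted p = 0.00979) and above Control under HCD+Gl-1 (0.46, adjusted p = 0.0178, short of the fold threshold, with pool B inside the Control range), and the cholesterol diets differed by 0.98 (adjusted p = 2.25e-06).

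Cytochrome P450 genes gave the largest higher values after Orm3. Of 28 measured genes of the list, 4 were DE and higher and 1 lower, 8 were higher with an adjusted p of at most 0.05, and the median was 0.25. Cyp3a41b had log2 values of 8.53, 8.38 and 7.66 in Control and 9.57, 9.33 and 9.96 under HCD+Gl-1, with no overlap and a difference of 1.43 (SE 0.16, adjusted p = 2.6e-07). Cyp3a44 had 7.06, 6.44 and 6.83 in Control and 7.87, 7.80 and 8.24 under HCD+Gl-1, a difference of 1.196 (SE 0.19, adjusted p = 0.000142). HCD minus Control was of like size, 1.42 (adjusted p = 3.18e-07) and 1.21 (adjusted p = 0.000185), and the cholesterol diets differed by 0.01 (95% interval -0.31 to 0.34) and -0.01 (-0.41 to 0.38). Both are of a close Cyp3a family in which probes can take signal from neighbours, so the 2 genes may not be separate measurements.

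Cyp2b9, of a family induced through the receptor CAR and, in mice, more abundant in female liver, had 5.28, 5.17 and 5.62 in Control, 8.71, 7.88 and 9.08 under HCD and 6.41, 6.07 and 6.96 under HCD+Gl-1. The HCD+Gl-1 arrays lay above all Control arrays and below all HCD arrays. The difference from Control was 1.12 (SE 0.21, adjusted p = 0.00129) under HCD+Gl-1 and 3.20 (SE 0.21, adjusted p = 4.72e-13) under HCD, and the direct test between the diets gave -2.08 (SE 0.21, adjusted p = 1.84e-07). Under HCD+Gl-1, Cyp2b9 was not DE with the liver arrays alone or after quantile normalization over them, and it was at 0.86 against Control pool C alone. Its relative Cyp2b10 was at 0.16 (adjusted p = 0.631) under HCD+Gl-1 and 0.86 (adjusted p = 0.000704) under HCD. The 3 DE genes Cyp2b9, Cyp3a44 and Cyp3a41b are also the only DE members of the list of 13 measured female-biased liver genes, whose median was 0.03. In the list of 10 measured male-biased genes none was DE.

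Alas1, the rate-limiting enzyme of heme synthesis, had 11.24, 11.44 and 11.10 in Control and 12.01, 11.90 and 12.06 under HCD+Gl-1, a difference of 0.73 (SE 0.08, adjusted p = 3.32e-07), beside 0.31 (adjusted p = 0.0474) under HCD. It was DE against Control pool C alone, at 0.89, but not without Control pool C or without HCD+Gl-1 pool C (0.65 to 0.82). Por, the reductase that passes electrons to the P450 enzymes (0.57, adjusted p = 0.000558), and Cyp3a11, a main drug-metabolizing enzyme (0.69, adjusted p = 0.000393), were higher without passing the fold threshold. Cyp17a1, a steroid hydroxylase, was the lower member, with 8.62, 9.13 and 7.55 in Control and 7.41, 7.07 and 7.41 under HCD+Gl-1. Its difference was -1.14 (SE 0.19, adjusted p = 0.000256), but it rested on Control pools A and B, since against pool C alone it was -0.25 (adjusted p = 0.476).

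Among lipid-binding and oxidation genes, Fabp5, Abcd2 and Pdk4 were lower. Fabp5, a fatty acid-binding protein, had 9.30, 9.38 and 9.32 in Control, 7.83, 8.01 and 7.46 under HCD and 8.27, 8.46 and 7.99 under HCD+Gl-1. The 3 Control arrays, pool C included, lay close together, and both cholesterol groups lay far below. The difference was -1.10 (SE 0.14, adjusted p = 4.52e-06) under HCD+Gl-1 and -1.57 (adjusted p = 8.65e-10) under HCD, and HCD+Gl-1 minus HCD was 0.47 (adjusted p = 0.0574). Abcd2, which carries very long chain fatty acids into peroxisomes, had 7.05, 7.47 and 6.41 in Control and 5.82, 5.87 and 5.84 under HCD+Gl-1. Its difference was -1.13 (SE 0.17, adjusted p = 4.11e-05), and -0.56 against pool C alone (adjusted p = 0.142). Pdk4, the kinase that shuts off pyruvate oxidation, had 7.14, 7.27 and 6.96 in Control and 6.69, 5.95 and 6.58 under HCD+Gl-1, a difference of -0.72 (SE 0.17, adjusted p = 0.0127), whose call was lost without Control pool B or without HCD+Gl-1 pool B (-0.86 to -0.49).

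Over the 31 measured genes of fatty acid oxidation and PPAR alpha targets, Abcd2 and Pdk4 were the 2 DE genes and the median was 0.04, beside -0.17 for HCD against Control. Cyp4a14, a classical PPAR alpha target, had 10.48, 10.47 and 10.29 in Control, 9.38, 7.88 and 9.64 under HCD and 10.16, 9.12 and 10.60 under HCD+Gl-1. Pool B was the lowest array in both cholesterol groups, the HCD+Gl-1 difference from Control was -0.46 (adjusted p = 0.504), and that of HCD was -1.45 (adjusted p = 0.0125). The HCD call of Cyp4a14 was lost with the 15 liver arrays only and without Control pool A, Control pool B or HCD pool B. In the list of 25 lipid droplet and storage genes Fabp5 was the only DE gene. Higher without passing the fold threshold were Cd36, the fatty acid translocase (0.49, adjusted p = 0.00417), Pparg (0.42, adjusted p = 0.00638), Lpin2 (0.40, adjusted p = 0.00713) and Fabp2 (0.50, adjusted p = 0.0388).

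Clock genes differed in both directions. The molecular clock is a loop in which Arntl (Bmal1) with Clock or Npas2 drives E-box genes, among them the repressors that shut the loop. Npas2 had log2 values of 7.47, 7.29 and 7.55 in Control, 6.96, 6.54 and 6.93 under HCD and 6.34, 5.79 and 6.30 under HCD+Gl-1. The groups followed each other without overlap, and pool B was the lowest array in each. The HCD+Gl-1 minus Control difference was -1.29 (SE 0.19, adjusted p = 3.79e-05), DE without each array in turn and against Control pool C alone (-1.40), beside -0.62 (adjusted p = 0.101) for HCD. Arntl, at 7.21, 7.10 and 7.21 in Control and 6.62, 6.35 and 6.49 under HCD+Gl-1, differed by -0.68 (adjusted p = 1.52e-05) and stopped just short of the fold threshold.

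Of 14 clock repressors and outputs, 3 were DE and higher, 8 were higher with an adjusted p of at most 0.05, 13 were above 0, and the median was 0.40. Of all genes, 42.5% were above 0. The mean log2 level of the list was 8.62, 8.44 and 8.78 on Control pools A, B and C and 9.03, 9.22 and 8.75 on those of HCD+Gl-1, so the groups overlapped, with HCD+Gl-1 pool C just below Control pool C. On the HCD arrays it was 8.99, 8.99 and 8.86, and for HCD against Control 14 of the 14 genes were above 0 with a median of 0.34. In that comparison 45.8% of all genes were above 0. Ciart, a repressor of the loop, had 7.85, 7.84 and 7.68 in Control and 8.81, 9.19 and 8.09 under HCD+Gl-1, a difference of 0.91 (SE 0.18, adjusted p = 0.00249). Its promoter (chr3:95882229-95882478, minus strand, GRCm38.p6, the 250 bases before the start) is shown because it holds 3 E-boxes (CACGTG, in capitals), a motif found for 4 of the 11 genes of this list with a listed promoter and for 8.01% of all measured genes with one.
Ciart: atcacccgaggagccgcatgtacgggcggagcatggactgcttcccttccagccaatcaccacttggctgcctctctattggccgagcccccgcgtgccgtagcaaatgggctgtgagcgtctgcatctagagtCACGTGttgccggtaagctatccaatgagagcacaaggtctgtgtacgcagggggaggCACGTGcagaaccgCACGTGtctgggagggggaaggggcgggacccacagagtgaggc
Usp2, an ubiquitin peptidase under clock control, had 8.26, 7.85 and 8.60 in Control and 9.01, 9.29 and 8.67 under HCD+Gl-1, a difference of 0.75 (SE 0.12, adjusted p = 0.000114). Wee1, the kinase that gates entry into mitosis, had 6.87, 6.50 and 7.00 in Control and 7.64, 7.76 and 7.21 under HCD+Gl-1, a difference of 0.74 (SE 0.11, adjusted p = 3.37e-05). For Ciart, Usp2 and Wee1 the HCD+Gl-1 order was pool B highest and pool C lowest, so pool C, made of A and B, lay below both. On the HCD+Gl-1 arrays pool C lay below both for 32.1% of all genes. None of the 3 was DE without HCD+Gl-1 pool B, and over all arrays left out in turn the differences were 0.66 to 1.21 for Ciart, 0.56 to 0.93 for Usp2 and 0.60 to 0.90 for Wee1. Usp2 and Wee1 also lost the call without Control pool B, and Wee1 without HCD+Gl-1 pool A. With the compared groups only, none of Ciart, Usp2 and Wee1 was DE. Ciart and Usp2 were also not DE with the 15 liver arrays only or after quantile normalization over liver arrays. Per3 (0.61, adjusted p = 0.000104), Dbp (0.43, adjusted p = 0.033), Per2 (0.38, adjusted p = 0.0416) and Tef (0.42, adjusted p = 0.0135) were higher below the fold threshold, while Nr1d1 was at 0.08 (adjusted p = 0.701). The hour of tissue collection of each group is not given in the sources used here, and the part of collection time in these values was not tested.

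**Figure D3:**
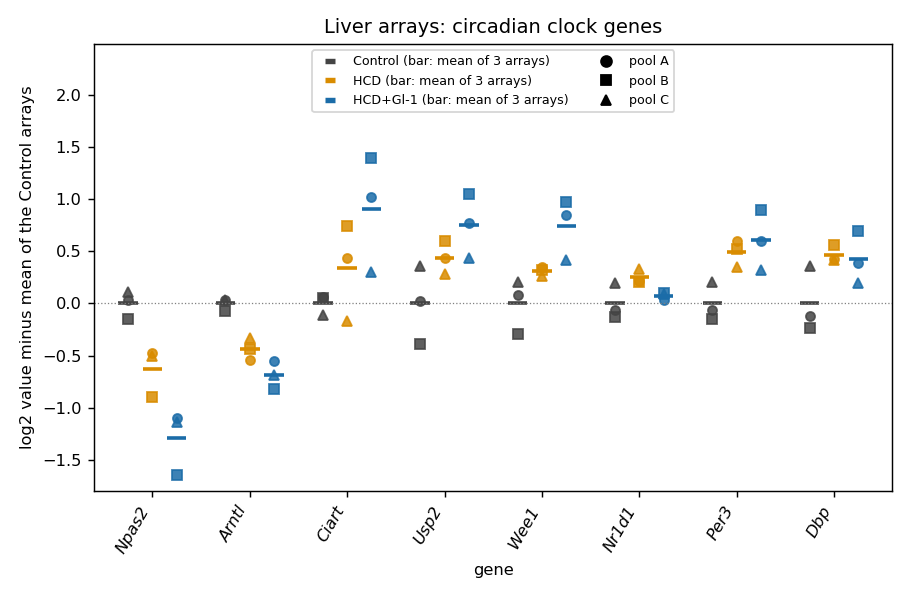
Log2 values of single liver arrays (points, shaped by pool) and group means (bars) for 8 clock genes, relative to the mean of the Control arrays (y axis). Npas2 and Arntl lie below Control and Ciart, Usp2 and Wee1 above it in all 3 HCD+Gl-1 arrays.

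Acute phase, immune and stress genes held single DE members. Orm3, an orosomucoid of the acute phase, had the largest higher difference of all DE genes: 6.04, 5.92 and 6.52 in Control and 7.91, 8.44 and 6.94 under HCD+Gl-1, a difference of 1.60 (SE 0.37, adjusted p = 0.00856). The HCD+Gl-1 arrays were spread widely, with pool C the lowest, and the gene was not DE without Control pool B (range without each array in turn 1.26 to 2.01). Nor was Orm3 DE with the 15 liver arrays only or after quantile normalization over liver arrays. Il1r1, the receptor of interleukin 1, had 9.33, 9.37 and 9.46 in Control, 9.33, 9.34 and 9.32 under HCD and 10.10, 9.90 and 10.30 under HCD+Gl-1. It was higher than Control by 0.71 (SE 0.11, adjusted p = 4.34e-05) and than HCD by 0.77 (adjusted p = 2.23e-05), with HCD at -0.06 (adjusted p = 0.932), and it fell below the fold threshold without Control pool A or HCD+Gl-1 pool C (0.62 to 0.82). Over the 27 acute phase genes these were the 2 DE genes, the median was 0.07, and the mean level of the list differed widely among pools, from 10.79 in pool C to 11.47 in pool B of HCD+Gl-1 and from 10.84 to 11.17 in Control. Gbp11, an interferon-induced GTPase, was the 1 DE gene of 25 interferon-stimulated genes (0.72, adjusted p = 0.0393), and it lost its call without 4 of the 6 arrays in turn (range 0.47 to 0.93).

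Of 21 genes of folding in the endoplasmic reticulum, 2 were DE and higher and 7 were higher with an adjusted p of at most 0.05, with a median of 0.16. Derl3, of the degradation machinery, had 7.86, 6.75 and 8.42 in Control and 8.62, 8.82 and 8.45 under HCD+Gl-1, a difference of 0.95 (SE 0.22, adjusted p = 0.0087). Control pool B lay far below the other Control arrays, and the gene was not DE without it (0.21 against pool C alone). Derl3 was also not DE with the 15 liver arrays only, with the compared groups only or after quantile normalization over liver arrays. Pdilt, a protein disulfide isomerase family member known from testis, was at 0.71 (adjusted p = 0.000473). The general chaperone genes among the 7 moved by less: Hsp90b1 by 0.30 (adjusted p = 0.0139), Pdia3 by 0.35 (adjusted p = 0.0144), Pdia6 by 0.35 (adjusted p = 0.0222), Dnajb11 by 0.41 (adjusted p = 0.0127) and Dnajc3 by 0.38 (adjusted p = 0.00149). Asns, the asparagine synthetase, was the DE gene of 12 amino acid response genes, at -0.78 (adjusted p = 0.0198), with HCD at -0.70 (adjusted p = 0.0666). Plk3, a stress-responsive kinase (0.79, adjusted p = 0.0254), was the DE gene of 26 immediate early genes. Onecut1, a liver transcription factor also called HNF6, was that of 15 glucose metabolism genes, at 9.63, 9.83 and 9.48 in Control and 10.62, 10.78 and 10.15 under HCD+Gl-1 (0.87, adjusted p = 0.000505). It was DE without each array in turn, but not with the liver arrays alone or after quantile normalization over them. Leaving out 1 array ended the call of Pdilt (Control pool C, HCD+Gl-1 pool A or C, 0.56 to 0.81), Asns (Control pool B, HCD+Gl-1 pool A or C, -0.86 to -0.62) and Plk3 (Control pool A or B, HCD+Gl-1 pool A, 0.71 to 0.94). In the conjugation and antioxidant (18), heat shock (17) and cell cycle (26) lists none was DE.

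Several of the largest diet differences were near Control when the extract was present. Moxd1, a monooxygenase of the dopamine beta-hydroxylase family, had log2 values of 10.15, 10.00 and 10.31 in Control, 7.88, 7.59 and 7.96 under HCD and 10.38, 10.36 and 10.38 under HCD+Gl-1. HCD arrays were far below both other groups, and HCD+Gl-1 arrays slightly above Control. The difference from Control was -2.34 (adjusted p = 0.000836) for HCD and 0.22 (adjusted p = 0.841) for HCD+Gl-1, with a 95% interval of -0.62 to 1.06 for the second, and the direct test between the cholesterol diets gave 2.56 (adjusted p = 0.000345). Fgl1, a secreted hepatocyte protein, had 11.35, 11.29 and 11.20 in Control, 10.19, 10.38 and 10.00 under HCD and 11.36, 11.48 and 11.33 under HCD+Gl-1. Its differences from Control were -1.09 (adjusted p = 0.00291) for HCD and 0.11 (adjusted p = 0.849) for HCD+Gl-1, with a 95% interval of -0.33 to 0.55, and 1.199 (adjusted p = 0.00106) between the cholesterol diets. For HCD against Control, neither Moxd1 nor Fgl1 was DE with the 15 liver arrays only or after quantile normalization over liver arrays.

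The metallothioneins, zinc and copper-binding proteins, showed the same order of groups. Mt1 had 11.89, 11.81 and 12.10 in Control, 11.19, 10.83 and 11.40 under HCD and 12.01, 11.90 and 11.99 under HCD+Gl-1. Its differences were -0.79 (adjusted p = 5.98e-06) for HCD, 0.03 (adjusted p = 0.909) for HCD+Gl-1 and 0.83 (adjusted p = 6.77e-06) between the diets. Mt2 differed by -1.02 (adjusted p = 0.000185), 0.17 (adjusted p = 0.63) and 1.19 (adjusted p = 1.97e-05). On the other side of Control, Cyp2c38 had 7.86, 8.03 and 7.01 in Control, 8.49, 8.54 and 8.24 under HCD and 7.52, 7.27 and 7.89 under HCD+Gl-1, with 0.79 (adjusted p = 0.0147) for HCD and -0.07 (adjusted p = 0.89) for HCD+Gl-1, though its Control arrays were themselves widely spread. Against Control pool C alone its HCD+Gl-1 difference was 0.55. Fitm1, a lipid droplet protein, was at 0.74 (adjusted p = 1.78e-06) under HCD and 0.20 (adjusted p = 0.248) under HCD+Gl-1.

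Other diet differences were smaller under HCD+Gl-1 without a DE call between the cholesterol diets. Gpr110, an adhesion receptor, had 8.75, 8.78 and 8.18 in Control, 7.57, 7.34 and 7.35 under HCD and 8.14, 7.90 and 7.68 under HCD+Gl-1, with no overlap between any of the groups. Its differences from Control were -1.14 (adjusted p = 0.000181) and -0.66 (adjusted p = 0.0309), and the diets differed by 0.48 (adjusted p = 0.149). Slc3a1, an amino acid transporter subunit (-0.97, adjusted p = 0.000892 under HCD, -0.47, adjusted p = 0.127 under HCD+Gl-1), Slc16a1, the lactate transporter (-0.74, adjusted p = 8.15e-05 and -0.47, adjusted p = 0.0116), and Aacs, the acetoacetyl-CoA synthetase (0.88, adjusted p = 1.75e-07 and 0.55, adjusted p = 0.000473), were chosen after their values were seen. Adam11 had differences of 1.16 (adjusted p = 2.36e-07) under HCD and 0.74 (adjusted p = 0.000446) under HCD+Gl-1, and Gm10639, a gene model, 1.099 (adjusted p = 4.99e-06) and 0.76 (adjusted p = 0.00107). Both lost the HCD+Gl-1 call without Control pool B, Adam11 also without HCD+Gl-1 pool B (0.54 to 0.98) and Gm10639 without HCD+Gl-1 pool C (0.51 to 0.98). Cyp2a22 was at 0.95 (adjusted p = 0.018) and 0.73 (adjusted p = 0.0572). Since all of these were picked for a DE call in HCD against Control, their HCD values are a description.

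**Figure D4:**
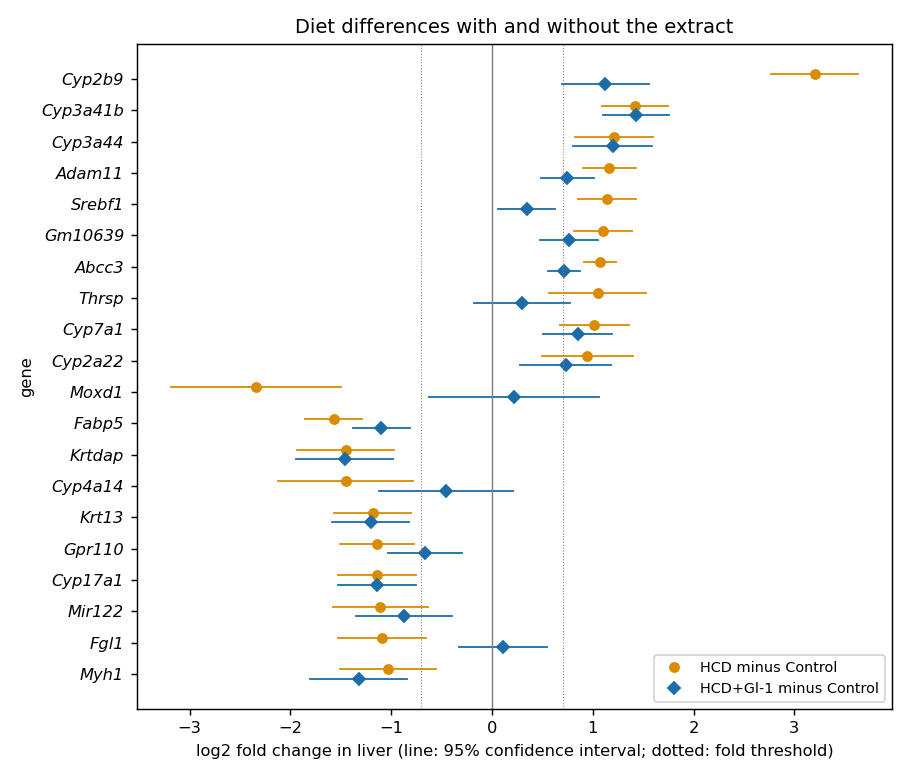
Log2 fold change against Control (x axis, lines are 95% confidence intervals of the limma fit) of HCD (circles) and HCD+Gl-1 (diamonds). The genes are up to 10 in each direction with the largest HCD minus Control difference among DE genes whose HCD and Control arrays did not overlap. Both sets use the same Control arrays. The unadjusted intervals for HCD+Gl-1 include 0 for Moxd1, Fgl1, Thrsp and Cyp4a14, and both estimates nearly coincide for Cyp3a41b, Cyp3a44, Cyp17a1 and the squamous markers Krtdap and Krt13. With the 15 liver arrays only, Moxd1, Fgl1, Thrsp and Cyp4a14 were not DE for HCD against Control.

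Among DE genes in no list, Coq10b, which codes for a coenzyme Q-binding protein, had the smallest p of all 22080 genes in this comparison. Its log2 values were 8.22, 8.29 and 8.22 in Control, 8.62, 8.65 and 8.50 under HCD and 9.30, 9.10 and 9.21 under HCD+Gl-1, tight within each group. The difference was 0.96 (SE 0.08, adjusted p = 2.3e-10), with 0.35 (adjusted p = 0.0106) for HCD and 0.61 (adjusted p = 7.91e-06) between the cholesterol diets. Upp2, a uridine phosphorylase of liver, had 10.76, 10.70 and 10.53 in Control, 11.47, 11.61 and 11.33 under HCD and 11.54, 11.51 and 11.45 under HCD+Gl-1, a difference of 0.83 (SE 0.08, adjusted p = 2.04e-08). Its HCD difference was 0.81 (adjusted p = 2e-08), and the cholesterol diets differed by 0.03 (95% interval -0.14 to 0.19). The gene model Gm14403 had 8.86, 8.62 and 8.59 in Control and 9.88, 9.80 and 9.66 under HCD+Gl-1 (1.09, adjusted p = 2.6e-07). All 3 were DE without each array in turn. Gdap10 (0.84, adjusted p = 0.000108), Ccdc152 (0.84, adjusted p = 0.00073) and Lonrf1 (0.73, adjusted p = 0.00247) were the other higher genes of this kind under the naming rule. Rarres1, chosen after its values were seen, was above Control by 0.72 (adjusted p = 0.000257) while HCD was at -0.35 (adjusted p = 0.188), and the diets differed by 1.08 (adjusted p = 1.18e-06). It lost its call without Control pool B or HCD+Gl-1 pool C (0.68 to 0.79), and Lonrf1 without Control pool A or HCD+Gl-1 pool A or B (0.53 to 0.96).

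On the lower side, Chrna4, a subunit of the nicotinic acetylcholine receptor, had 7.83, 8.03 and 7.51 in Control, 7.32, 7.57 and 7.30 under HCD and 6.78, 6.50 and 6.73 under HCD+Gl-1. The HCD+Gl-1 arrays were apart from both other groups, with -1.12 (SE 0.12, adjusted p = 2.6e-07) against Control, -0.73 (adjusted p = 0.000451) against HCD and -0.84 against Control pool C alone (adjusted p = 0.00612). Rdh11, a retinal reductase that is also regulated by SREBP, had 7.85, 8.08 and 7.39 in Control and 6.84, 6.67 and 7.11 under HCD+Gl-1 (-0.90, adjusted p = 1.87e-05). Mir122, the host locus of the liver microRNA miR-122, had 8.39, 8.48 and 8.03 in Control, 7.58, 7.60 and 6.40 under HCD and 7.54, 6.76 and 7.98 under HCD+Gl-1. It varied by more than 1 on the log2 scale within each cholesterol group, and its difference of -0.88 (adjusted p = 0.0276) lost its call without 4 of the 6 arrays in turn (range -1.15 to -0.54). Igkv6-14, an immunoglobulin segment, was at -0.96 (adjusted p = 0.00925). Aqp8, a water channel of hepatocytes chosen after its values were seen, had 9.55, 9.70 and 9.52 in Control, 9.79, 9.75 and 9.59 under HCD and 8.96, 8.71 and 8.94 under HCD+Gl-1, with -0.72 (adjusted p = 0.000448) against Control and -0.84 (adjusted p = 0.000105) against HCD. Aqp8 lost its call without Control pool B or HCD+Gl-1 pool B (-0.77 to -0.64) and Igkv6-14 without Control pool B or HCD+Gl-1 pool C (-1.06 to -0.88).

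Genes listed as markers of squamous epithelium and skeletal muscle, cell types that liver lacks, made up 15 of the 43 lower genes. A listed gene need not be limited to that cell type, as with Des (-0.73) of the muscle list. Of 29 squamous markers 9 were DE and lower and 12 were lower with an adjusted p of at most 0.05, and none was higher. Krt4, a keratin of the oesophagus, had log2 values of 7.80, 8.63 and 5.82 in Control and 5.89, 5.61 and 5.76 under HCD+Gl-1. Control pools A and B were high and pool C, although made of A and B, lay at the level of HCD+Gl-1. The difference was -1.67 (SE 0.30, adjusted p = 0.000683), and -0.07 against pool C alone. Krtdap (-1.46, adjusted p = 0.000168), Defb4 (-1.34, adjusted p = 0.00622), Sprr3 (-1.32, adjusted p = 0.000539) and Krt13 (-1.20, adjusted p = 0.000104) had the same order of arrays, with Control values of 6.55, 7.27 and 5.09 for Krtdap and 6.80, 7.72 and 6.02 for Krt13. Over the list the mean level was 6.33, 6.54 and 5.81 on Control pools A, B and C and between 5.69 and 5.76 on the HCD+Gl-1 arrays. None of the list was at 0 on any array, as array values have a background above 0.

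Of 30 skeletal muscle markers 6 were DE and lower and 12 were lower with an adjusted p of at most 0.05. Myh1, a fast myosin heavy chain, had 6.66, 6.46 and 5.64 in Control and 4.93, 4.97 and 4.89 under HCD+Gl-1 (-1.32, adjusted p = 0.00057). Acta1, the skeletal actin, had 8.36, 8.65 and 8.16 in Control and 6.98, 7.37 and 7.11 under HCD+Gl-1 (-1.24, adjusted p = 0.00435), with pool C less apart from pools A and B than for the squamous markers. The mean level of the list was 6.76, 6.89 and 6.65 on the Control arrays and 6.26, 6.37 and 6.35 on those of HCD+Gl-1. In the fit on liver arrays alone, 0 squamous and 0 muscle markers and 5 sterol synthesis genes were DE, with the same log2 fold changes but other p-values (Acta1 at -1.24 with an adjusted p of 0.192). With the compared groups only, 0 squamous, 4 muscle and 4 sterol synthesis genes were DE, and without Control pool C 12, 7 and 9 were. The part of other tissue in the other lower genes was not tested either. The lists of cholangiocyte (10 measured), macrophage (15), lymphocyte (13), neutrophil (11), endothelial (13), adipocyte (8), pancreas acinar (24), and stellate and fibroblast (13) markers had no DE gene. Genes lower with an adjusted p of at most 0.05 were 1 lymphocyte, 1 endothelial and 2 adipocyte markers and 3 of stellate cells and fibroblasts, led by Acta2 (-0.69, adjusted p = 5.75e-06).

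**Figure D5:**
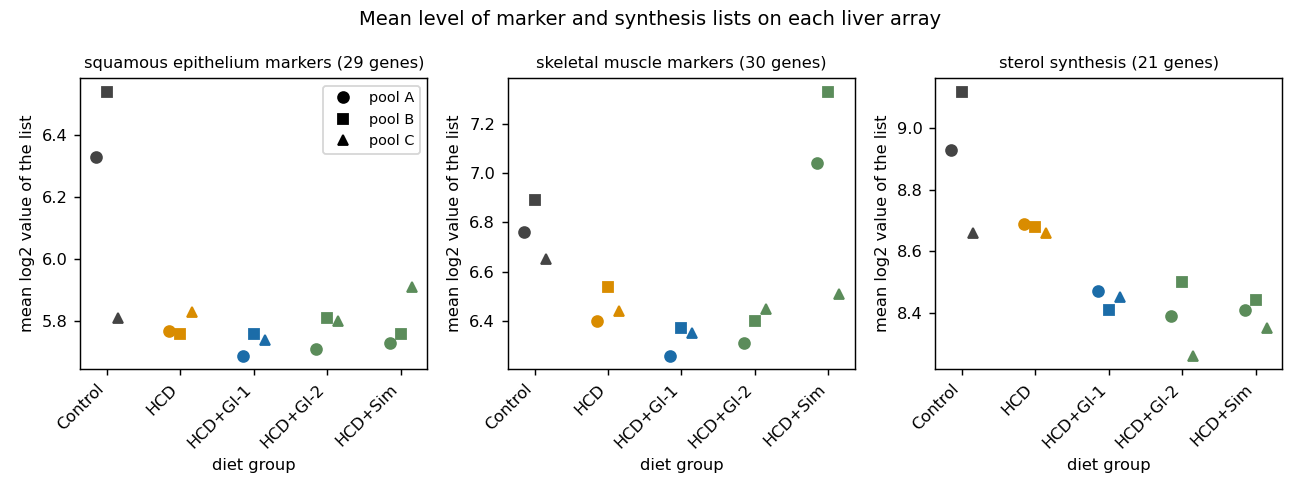
Mean log2 value of the squamous epithelium, skeletal muscle and sterol synthesis lists (y axis) on each of the 15 liver arrays by diet group (x axis) and pool (shape). Control pools A and B lie above pool C in all 3 panels, and the HCD+Gl-1 arrays lie between 8.41 and 8.47 in the sterol synthesis panel.

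Kidney of the same groups showed few differences, with 2 of 22080 genes DE (0.00906%) between HCD+Gl-1 and Control. The difference of the liver and kidney differences, tested in the same fit, passed both thresholds for 26 genes (0.118%) and the adjusted p alone for 55 (0.249%). It was tested for each of the 49 genes named for their size, and 15 had an adjusted p of at most 0.05, 8 higher and 7 lower in liver. Since the 49 genes were named for large liver differences, these counts are a description. Acss2 (-1.04, adjusted p = 0.000532), Fabp5 (-1.13, adjusted p = 0.00298) and Chrna4 (-1.04, adjusted p = 0.00192) were among the lower and Upp2 (0.94, adjusted p = 1.21e-05) and Coq10b (0.64, adjusted p = 0.00298) among the higher. For Fdps (-0.94, adjusted p = 0.0661), Nsdhl (-0.83, adjusted p = 0.121) and Npas2 (-0.95, adjusted p = 0.13) the difference between the tissues did not pass.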

How the data were processed

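From array intensities, the authors removed background by RMA, applied quantile normalization (oligo package) and adjusted for batch with ComBat. Where several probe sets named a gene, the authors deposited the one with the widest interquartile range. The deposited values are on the log2 scale, and 13 of the 22080 gene names had turned into dates (tested, not named). The batches given to ComBat are not given in the sources used here, and an adjustment can narrow the spread within groups. Tissue, diet and pool letter came from the labels. All 45 arrays entered one limma 3.58.1 fit in R 4.3.3 with a mean for each of 15 groups and empirical Bayes moderation, and p-values were adjusted by Benjamini-Hochberg over all genes within a contrast. The median SE of a log2 fold change was 0.0995. The number of arrays limits the precision. The code was tested on simulated data.

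Named genes are up to 20 DE genes in each direction with the largest difference and no overlap of arrays, up to 10 in each direction by the same rule for HCD against Control, and list members. The genes, the 21 pathway and 11 marker lists and the comparison were chosen with earlier results of these data known. Some named genes are not reported here. Lists are described by counts and medians with no set test. Alternatives were the 15 liver arrays alone, the groups compared alone, no pool C, a replicate block by pool letter, a dim-gene filter, quantile normalization over liver arrays, trend and robust moderation, no fold threshold, each array left out in turn, and Control pool C alone, which was chosen after seeing the data. Pools of the same letter hold different mice. The correlations of their deviations from the group means were 0.06, -0.06 and -0.13 for A, B and C, so the letter was not treated as a pairing.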

Additional observations from a re-analysis of the deposited data

Results flagged for a closer look

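The HCD+Gl-1 minus Control difference in liver was set against that in kidney for the 49 genes named for their size, and the difference between the tissues had a limma adjusted p of at most 0.05 for 15 of them, 8 higher and 7 lower in liver. Of the higher genes 7 are given here, with liver minus kidney at 1.303 for Cyp3a41b, 1.12 for Gm14403, 1.097 for Gm10639, 0.94 for Upp2, 0.77 for Usp2, 0.68 for Abcc3 and 0.64 for Coq10b, on the log2 scale. Coq10b was also higher in kidney by its means, 8.84 under HCD+Gl-1 against 8.52 in Control. On the lower side it was -0.80 for Rdh11, -1.03 for Abcd2, -1.04 for Chrna4, -1.04 for Acss2, -1.13 for Fabp5, -1.19 for Krt13 and -1.49 for Myh1. The last pair are markers of squamous epithelium and skeletal muscle. The 49 genes were named for large liver differences, so the count of 15 is a description. Control means in kidney were below those in liver for Cyp3a41b (3.51 against 8.19), Abcd2 (5.07 against 6.98), Krt13 (5.55 against 6.85) and Myh1 (4.86 against 6.25), among others. They were above liver for Gm10639, Usp2, Coq10b, Chrna4 and Acss2. How far a low kidney level limits a change there was not tested. The adjusted p-values ran from 1.21e-05 (Upp2) to 0.0432 (Abcd2).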

How the results depend on the processing

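The count of 71 DE genes between HCD+Gl-1 and Control was 32 with the 15 liver arrays only, 41 with the compared groups only, 116 with pools A and B only, 29 after quantile normalization over liver arrays and 791 without a fold threshold. It ranged from 46 (without Control pool B) to 103 (without Control pool C) with each array left out, and was 54 against Control pool C alone, a setting chosen after seeing the data that shared 23 genes with the 71. A fit that leaves 1 array in a group takes it to vary like the other groups. For HCD against Control the count of 54 became 21, 25, 98, 24 and 296 under the same settings in order and 48 to 78 with arrays left out, and for HCD+Gl-1 against HCD the count of 36 became 14, 23, 51, 14 and 547, and 34 to 63, the highest without HCD+Gl-1 pool B. The count of 26 for liver against kidney was 88 with pools A and B only, 55 without a fold threshold and 13 to 73 with arrays left out: 13 without Control pool B of liver or Control pool C of kidney, 16 without pool A or C of kidney HCD+Gl-1, 70 without liver HCD+Gl-1 pool B and 73 without liver Control pool C. With the pool letter as a replicate block the 4 counts were 71, 61, 41 and 41, of which the last, for liver against kidney, moved by over 1.5 times. Against Control pool C alone, 4 named genes that were DE or differed by more than their SE changed sign. They were Cnfn (0.0278), Defb4 (0.13) and Serpinb3c (0.33), squamous markers, and Cyp2b10 (-0.0324). Some smaller differences changed sign too, among them Cyp2c38 (-0.07 to 0.55), Mt1 (0.03 to -0.13) and Nr1d1 (0.08 to -0.13). Of the 71 genes, 10 were DE in every other setting run. The cause of these shifts was not tested. Array number limits the precision.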
